A study of Mus musculus with 22 samples.

Results

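The genes described here serve the sensing of nucleic acids by innate immunity, above all the Toll-like receptors of the endosome. They were chosen by name: 10 listed symbols were looked up in both count tables, which together hold 26379 gene symbols. Rows were found for 9 of the 10 symbols in the table for skin and blood, which has 24401 genes, and for 8 in the table for keratinocytes, which has 21596. TREX1, a nuclease that degrades cytosolic DNA, matched no row of either table and is not analysed here; the GENCODE M21 annotation places its 1147 exon bases inside Atrip on the same strand. TLR8 has no row in the keratinocyte table, in which the smallest row total is 6 counts.

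The data come from K5-VGLL3 transgenic mice and wild-type mice. The K5 in the name is keratin 5, made by keratinocytes of the basal layer; VGLL3 acts as a cofactor of the TEAD family of transcription factors. RNA was sequenced from nonlesional skin and from whole blood of the same 8 animals, 4 labelled VGLL3_TG and 4 labelled WT, with replicates 1 and 2 male and replicates 3 and 4 female in each genotype; no age is given for them beyond the statement that they were matched. Primary keratinocytes were taken from tails of 23-day-old littermates and grown for 3 days, with 3 cultures per genotype. All 3 transgenic cultures were male, and of the wild-type cultures replicates 1 and 2 were female and replicate 3 male.

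Toll-like receptors are membrane proteins that recognise conserved microbial molecules. TLR3, TLR7, TLR8 and TLR9 face the lumen of endosomes and read double-stranded RNA, single-stranded RNA and unmethylated DNA. The chaperone UNC93B1 carries them there, and proteases cut their ectodomains. TLR7, TLR8 and TLR9 signal through MYD88 to kinases and to factors such as IRF5. Cytosolic DNA is read by a separate pair: MB21D1 (cGAS) makes a cyclic dinucleotide that activates TMEM173 (STING). DNASE1L3 is a secreted nuclease that digests DNA in chromatin and microparticles, and its loss is a known cause of familial lupus. In skin, TLR3 is a receptor of keratinocytes, while TLR7 and TLR9 are best known from plasmacytoid dendritic cells, B cells and myeloid cells.

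Skin libraries held 19600892 to 40678246 counts, those of blood 11197265 to 18235483 and the keratinocyte cultures 33412093 to 51877437. Values below are CPM, counts brought to a common library size by the TMM method, and means are given ± SD. VGLL3 itself, as the tables count it, was at 92.2 to 778 CPM in transgenic and 43.6 to 92.4 CPM in wild-type skin, and at 406 to 499 against 191 to 225 CPM in keratinocytes. In blood it was at 0 to 0.788 CPM in transgenic and 0.257 to 2.03 CPM in wild-type libraries. Keratinocyte markers, 12 genes such as keratins, summed to 43330 to 46544 CPM in the cultures and 10231 to 19917 CPM in skin. In skin, 20 hair follicle genes differed widely within each genotype: their mean log2 CPM was 5.36 in transgenic replicate 2 and -1.08 to -0.75 in the other transgenic libraries, and -0.998 in wild-type replicate 2 and 6.44 to 10.16 in the other wild-type libraries. A gene was called when the Benjamini-Hochberg adjusted p of edgeR's quasi-likelihood test, taken over all genes tested in that tissue, was under 0.05.

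The promoters of a pair of receptors are shown, since TLR3 was the only endosomal receptor among the members called between genotypes by this test and TLR8 had the largest difference of the members in blood. RefSeq's promoter table for GRCm38.p6 held 6 of the 10 symbols; the 250 bases before the transcript start are printed 5′ to 3′ on the strand of the gene. For TLR3 they lie at chr8:45410381-45410630 on the minus strand, and for TLR8 at chrX:167264330-167264579 on the minus strand. The TLR3 window lies inside the gene body that GENCODE M21 annotates (45395665 to 45411080). The bases before that annotated 5′ end of TLR3 were not searched.
TLR3: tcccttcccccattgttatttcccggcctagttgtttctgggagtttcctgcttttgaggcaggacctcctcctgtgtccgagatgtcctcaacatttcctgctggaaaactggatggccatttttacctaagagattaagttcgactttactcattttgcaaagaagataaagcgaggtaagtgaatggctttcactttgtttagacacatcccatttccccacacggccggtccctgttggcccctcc
TLR8: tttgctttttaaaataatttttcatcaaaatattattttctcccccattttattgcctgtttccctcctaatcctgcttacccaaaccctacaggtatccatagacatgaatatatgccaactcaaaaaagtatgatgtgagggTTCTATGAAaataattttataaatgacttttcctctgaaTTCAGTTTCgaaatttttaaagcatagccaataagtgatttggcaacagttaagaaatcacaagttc
Capitals mark matches to motifs searched on both strands. GAAANNGAA, an element read by interferon regulatory factors, was found once in TLR8, on the opposite strand from base -67, and in 7.13% of 32851 promoter windows of the same length. TTCNNNGAA, read by STAT factors, was found once in TLR8 from base -106 and in 7.02% of the windows. Neither these nor AGGAAG, read by PU.1 and other ETS factors (29.5% of windows), nor GGAATG, read by TEAD factors (12.6%), had a match in the TLR3 window. TLR9 and MB21D1 each held 1 match to AGGAAG, and IRF5 held none of the motifs.

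In keratinocytes, the nuclease was higher and the receptor for double-stranded RNA lower in the transgenic cultures. All 3 transgenic cultures were male and 2 of 3 wild-type cultures female, so genotype and sex are nearly the same split. With sex as a covariate neither gene was called. DNASE1L3 was 2.65-fold higher in transgenic cultures, TLR3 was lower by 0.65 on the log2 scale, and the other 4 genes tested were not called. The comparison asks how keratinocytes carrying the transgene differ from wild-type ones. The share of genes called was 15.2% of 14451 tested, 1028 higher and 1169 lower, and 2 of the 6 members tested were called. The median log2 fold change was 0.02 over the 6 and 0.01 over all genes.

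DNASE1L3 (chromosome 14, 7964533 to 7994573 on mm10, minus strand) stood at 11.2, 12.9 and 16.3 CPM in transgenic cultures 1 to 3 and at 4.22, 4.51 and 6.51 CPM in wild-type cultures 1 to 3. Every transgenic culture was above every wild-type one, as for 17.7% of all genes tested. The means were 13.5 ± 2.63 and 5.08 ± 1.25 CPM (SD, n = 3 each), and the log2 fold change was 1.41 (SE 0.205, edgeR adjusted p = 0.00541). The wild-type culture nearest the transgenic ones was replicate 3, the male. With the male cultures alone, 3 transgenic against 1 wild type, the log2 fold change was 1.05 (adjusted p = 0.14), and with sex as a covariate it was 1.05 (adjusted p = 0.0662).

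TLR3, whose gene body spans bases 45395665 to 45411080 of chromosome 8 on the minus strand, was measured at 8.05, 7.07 and 6.9 CPM in the transgenic cultures and 10.9, 13.3 and 10.2 CPM in the wild-type ones. The groups did not overlap, and 18.5% of all genes had every transgenic culture below every wild-type one. The means were 7.34 ± 0.622 and 11.5 ± 1.64 CPM (SD, n = 3 each), which is -0.65 as a log2 fold change (SE 0.126, edgeR adjusted p = 0.0159). The call was lost among the males alone (-0.49, adjusted p = 0.236), with sex as a covariate (-0.49, adjusted p = 0.176), without transgenic replicate 2 (adjusted p = 0.0653) and without wild-type replicate 2 (adjusted p = 0.0523). TLR3 shares 381 exon bases with the antisense gene Gm45542, and the strand setting of the counting is not given in the sources used here.

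TLR7 and TLR9 were close to the limit of detection in keratinocytes and were removed by the filter on low counts. TLR7 had 6 counts over the 3 transgenic cultures and 6 over the 3 wild-type ones, with 0 in wild-type culture 3, which allows up to 3 counts there. TLR9 had 14 counts over each group, at 0.0431 to 0.197 CPM. A difference in either gene was not detectable at this depth.

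IRF5 (chromosome 6, 29526625 to 29541871, plus strand), the transcription factor downstream of the receptors, was at 17.2, 17.1 and 15 CPM in transgenic cultures and 18.4, 18.4 and 19.4 CPM in wild-type ones. The groups did not overlap, but the log2 fold change of -0.19 (SE 0.079) was not called (edgeR adjusted p = 0.147). IRF5 shares 411 exon bases with Tnpo3 on the opposite strand. UNC93B1 was at 6.76, 7.89 and 8.98 CPM in transgenic and 7.08, 8.15 and 7.74 CPM in wild-type cultures (log2 fold change 0.05, SE 0.127, edgeR adjusted p = 0.843). MB21D1 was at 17.8, 17.4 and 15.6 CPM against 17.9, 15 and 15.4 CPM (log2 fold change 0.07, SE 0.095, edgeR adjusted p = 0.665). Both groups overlapped in these genes, as they did in TMEM173, at 3.47, 2.5 and 3.21 CPM against 3.51, 2.95 and 2.75 CPM (log2 fold change -0.01, SE 0.175, edgeR adjusted p = 0.982). The sensor MB21D1 was thus counted well above its partner TMEM173 in every culture, also per exon length: 3.90 ± 0.384 against 1.12 ± 0.143 CPM per kilobase in wild-type cultures.

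**Figure D1:**
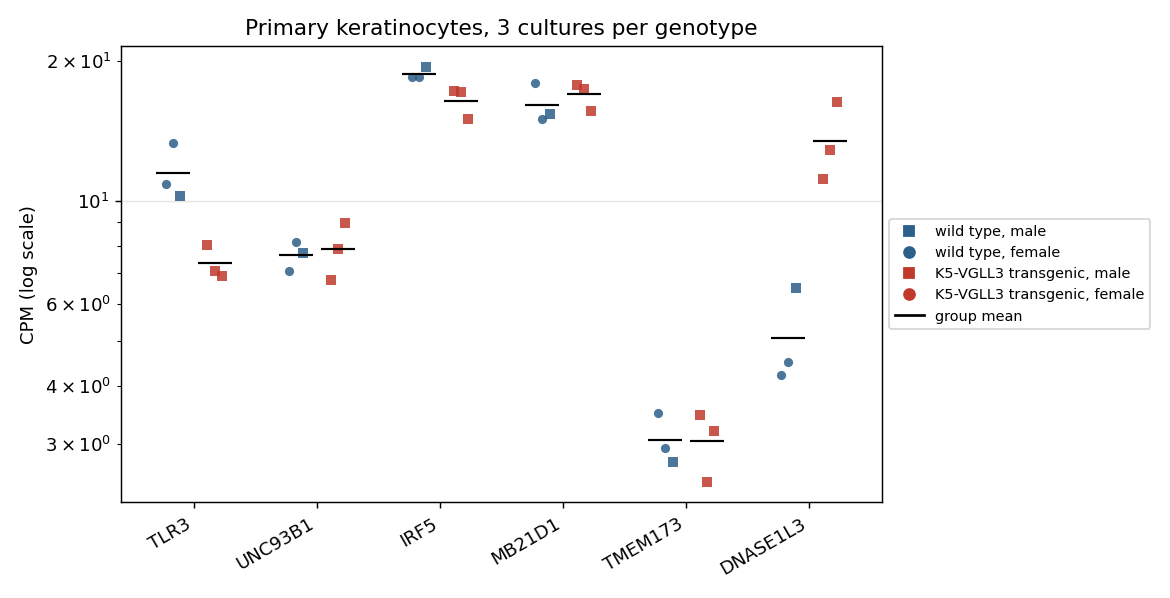
CPM of the 6 tested genes in each primary keratinocyte culture (log scale, blue wild type, red transgenic, squares male, circles female, black bars group means). DNASE1L3 lies at 11.2 to 16.3 CPM in the transgenic and 4.22 to 6.51 CPM in the wild-type cultures, TLR3 lies lower in the transgenic ones, and the wild-type group holds the 2 female cultures.

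Some genes around the receptors were called in each direction in keratinocytes, where 15.2% of all genes were called. The counts of the cytosolic sensing list (2 of 14) and of the interferon-stimulated genes (3 of 18) lie near that share. The number of all genes called also moved under the alternatives named below, as given in the last section. List counts under those alternatives are printed without that share and are not read as results about the lists. Of 12 tested genes of endosomal Toll-like receptor signalling, 2 were called higher and 2 lower. IRF7, the interferon regulatory factor of the plasmacytoid response, rose from 1.35 ± 0.205 to 3.21 ± 0.766 CPM (log2 fold change 1.23, adjusted p = 0.0125), and IRAK3, an inhibitory kinase-like protein, rose by 0.59 on the log2 scale (adjusted p = 0.0328). The signalling kinases IRAK1 and IRAK2 fell, by 0.32 (adjusted p = 0.00411) and 0.42 (adjusted p = 0.0137). Median log2 fold change of this list was 0.09. The count of 4 became 0 among the males alone and with sex as a covariate, and 2 without transgenic replicate 2 or without wild-type replicate 2.

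Among 8 tested genes of receptor folding and proteolysis, 2 rose and 2 fell (median 0.14). The endosomal protease CTSS stood at 0.78 ± 0.0892 CPM in transgenic and 0.0937 ± 0.0501 CPM in wild-type cultures (log2 fold change 2.96, edgeR adjusted p = 0.00314). Its wild-type mean lay within the range of TLR9, which was close to the limit of detection. PLD3, an endolysosomal exonuclease, rose by 0.45 (edgeR adjusted p = 0.021). LGMN, a lysosomal protease, fell by 0.52 on the log2 scale (adjusted p = 0.00385) and the chaperone HSP90B1 by 0.45 (adjusted p = 0.00691). The count of 4 was 0 among the males alone and 1 with sex as a covariate.

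Of 5 tested surface receptor genes, 2 were called lower and none higher, with a median of -0.38. TLR2, which reads lipoproteins, fell from 26 ± 2.31 to 13.6 ± 0.78 CPM (log2 fold change -0.94, adjusted p = 0.00101), and TLR4, which reads lipopolysaccharide, fell from 19.2 ± 2.01 to 12.2 ± 0.284 CPM (-0.65, adjusted p = 0.00468). LY96, a co-receptor of TLR4, had a positive difference of 0.23 that was not called. The count of this list was 2 also among the males alone and with sex as a covariate.

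Of 14 tested genes of cytosolic RNA and DNA sensing, 1 rose and 1 fell (median 0.02). ADAR, which edits double-stranded RNA, rose by 0.26 (adjusted p = 0.0197) and the kinase IKBKE fell by 0.46 on the log2 scale (adjusted p = 0.0129). The count of 2 was 0 among the males alone, with sex as a covariate and without wild-type replicate 2, 1 without any one of the other wild-type cultures or of transgenic replicates 1 and 2, and 4 without transgenic replicate 3.

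Of 11 tested genes of nucleic acid degradation, 3 fell and none rose (median -0.04). Among them the ribonuclease H2 subunits RNASEH2B and RNASEH2A fell by 0.19 (adjusted p = 0.0389) and 0.28 (adjusted p = 0.0452). The count of 3 was 0 among the males alone and 1 with sex as a covariate, and it was 1 on leaving out any culture but transgenic replicate 3.

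Of 18 tested interferon-stimulated genes, 2 rose and 1 fell (median 0.06). OASL2 rose by 2.39 on the log2 scale (adjusted p = 0.00764) and the oligoadenylate synthetase OAS1A by 1.49 (adjusted p = 0.0181), while IFIT2 fell from 10.2 ± 2.33 to 2.32 ± 0.403 CPM (-2.13, adjusted p = 0.00119). The count of 3 was 1 among the males alone and 7 without transgenic replicate 3. B cell markers were low in the cultures: 3 of 12 had a row and their sum was 0.17 to 0.426 CPM in transgenic and 0.0983 to 0.258 CPM in wild-type cultures. Neutrophil markers, 7 of 12 with a row, summed to 978 to 1488 against 768 to 1036 CPM. Of the 6 tested, however, 5 had a negative difference (median log2 fold change -0.81) and 2 were called lower. Langerhans cell markers, 3 of 3 with a row, summed to 135 to 181 against 182 to 208 CPM, with 1 of 2 tested called higher. Conventional dendritic cell markers, 7 of 10 with a row, summed to 2.6 to 3.43 against 0.786 to 1.56 CPM, and monocyte and macrophage markers, 11 of 15 with a row, to 29.8 to 43.9 against 20.6 to 29.4 CPM. Of the plasmacytoid dendritic cell markers, 6 of 11 had a row and 3 of 4 tested were called higher (sum 876 to 1015 against 646 to 757 CPM), most of the sum being LY6D, which keratinocytes also make. T cell markers, 4 of 12 with a row, summed to 5.08 to 6.67 against 23.4 to 30.4 CPM, with CD28 called lower. The part of such cells in these differences was not tested.

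**Figure D2:**
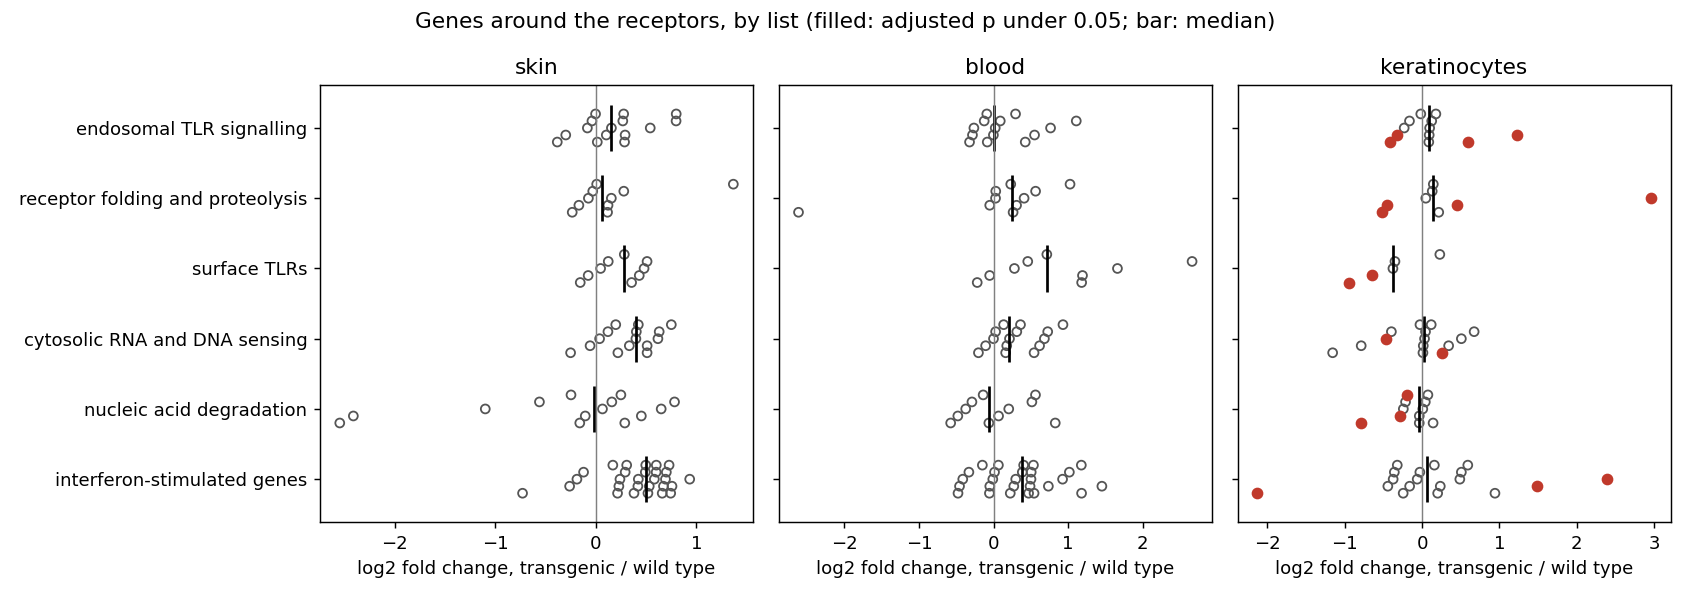
Log2 fold changes, transgenic over wild type, of the tested genes of 6 lists in skin, blood and keratinocytes; filled points passed an adjusted p of 0.05 and vertical bars are medians. Filled points appear in the keratinocyte panel alone, on both sides of 0, and the surface receptor median there is -0.38.

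In blood, TLR7 and TLR8 had the largest differences of the members, TLR7 at 1.47-fold and TLR8 at 2.85-fold the wild-type mean, and neither was called. TMEM173 was at 0.805 of the wild-type mean. Of 8 members tested in blood, 0 were called, beside 0.761% of 11174 genes. With edgeR, 2 members had an unadjusted p under 0.05, as had 1730 of all genes. DESeq2 called 1 member beside 451 genes, and limma-voom called 0 beside 21. The median log2 fold change was 0.01 over the members and -0.04 over all genes. In bulk samples such as these, fewer cells of a type and less RNA per cell cannot be told apart.

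TLR7 and TLR8, receptors for single-stranded RNA, are neighbours on chromosome X: TLR8 spans 167242696 to 167264329 and TLR7 167304929 to 167330558, both on the minus strand, with 40599 bases between them. In blood TLR7 was at 14.9, 13.1, 14.6 and 17.7 CPM in transgenic replicates 1 to 4 and at 12.3, 7.22, 12.1 and 9.53 CPM in wild-type replicates 1 to 4. Every transgenic library was above every wild-type one, as for 3.69% of all genes (5.07% had every transgenic library below). The means were 15.1 ± 1.90 and 10.3 ± 2.41 CPM (SD, n = 4 each) and the log2 fold change was 0.54 (SE 0.195, edgeR adjusted p = 0.24).

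TLR8 was at 18.3, 5.31, 9.18 and 16.4 CPM in the transgenic blood libraries and at 7.46, 1.52, 5.72 and 2.57 CPM in the wild-type ones. The groups overlapped, transgenic replicate 2 lying below wild-type replicates 1 and 3. The means were 12.3 ± 6.12 and 4.32 ± 2.75 CPM, with 1.46 as the log2 fold change (SE 0.514, edgeR adjusted p = 0.228). TLR8 was called with DESeq2 (1.53, DESeq2 adjusted p = 0.0486), which called 451 genes. It was also called by edgeR with no filter on low counts (1.47, edgeR adjusted p = 6.09e-08), a fit that called 1101 genes. In the test reported 85 genes were called. A further call came without transgenic replicate 2 (1.73, edgeR adjusted p = 0.0487). Over its 16 alternatives the adjusted p of TLR8 ran from 6.09e-08 to 0.653.

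Neutrophil markers moved with these receptors: the summed CPM of 11 markers was 3061 to 10325 in transgenic and 280 to 2631 in wild-type blood, and 3 of the 11 tested were called higher. Monocyte and macrophage markers summed to 255 to 367 against 101 to 258 CPM. Plasmacytoid dendritic cell markers summed to 59.2 to 132 CPM in transgenic and 105 to 152 CPM in wild-type blood, with 3 of 8 tested differences positive and 5 negative. In that list LY6D was at 26.2 ± 17 against 47 ± 5.64 CPM and SPIB at 32.5 ± 17.7 against 49.8 ± 10.8 CPM. SIGLECH, a defining marker, was at 2.03 ± 2.66 against 1.23 ± 1.07 CPM. B cell markers summed to 346 to 715 against 597 to 875 CPM. T cell markers summed to 122 to 147 against 202 to 294 CPM, with 12 of 12 differences negative and 3 genes called lower. Keratinocyte markers summed to 149 to 231 against 219 to 402 CPM, and 8 of the 10 tested were called lower; KRT5 was at 0.768 ± 0.197 against 17.3 ± 7.38 CPM. With genes abundant in skin left out, the log2 fold changes were 0.50 for TLR7 and 1.41 for TLR8. No marker of these lists with a row was at 0 in all blood libraries. The part of the cell makeup in the values of TLR7 and TLR8 was not tested.

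**Figure D3:**
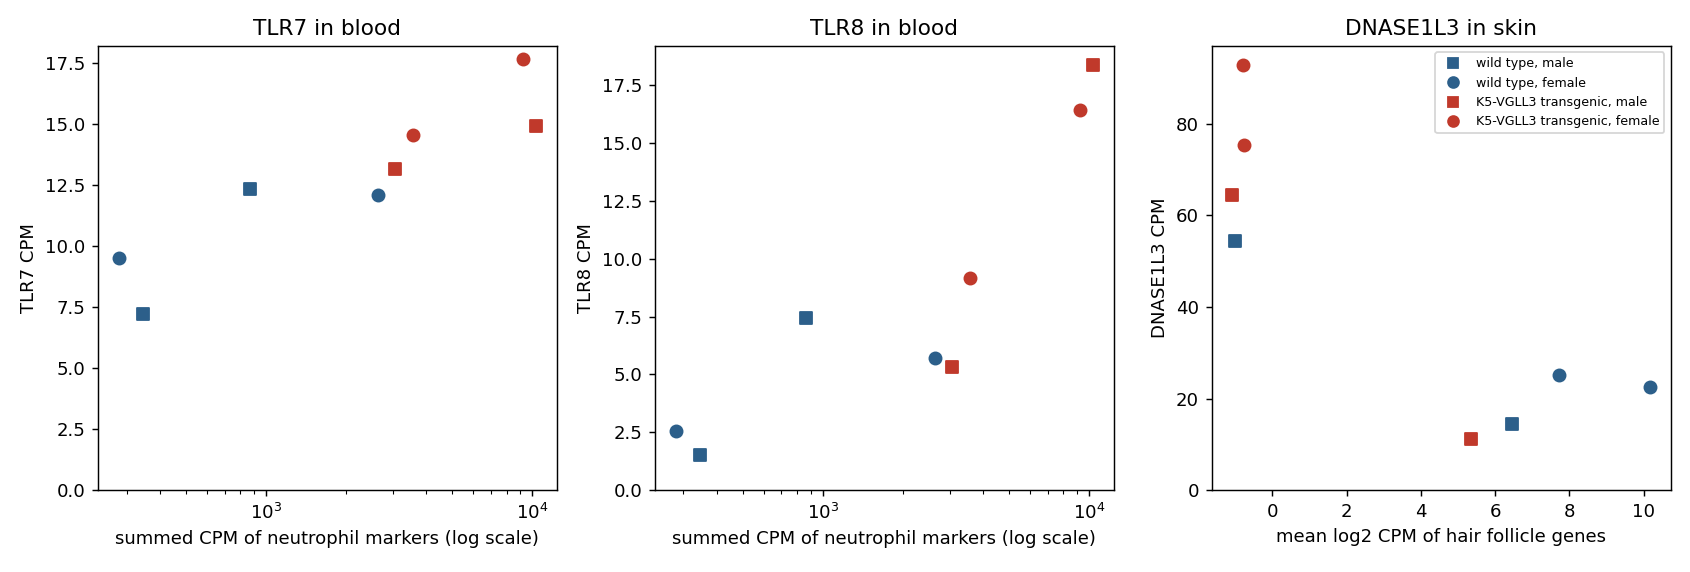
TLR7 and TLR8 CPM in blood against the summed CPM of neutrophil markers (log scale), and DNASE1L3 CPM in skin against the mean log2 CPM of 20 hair follicle genes, one point per library (red transgenic, blue wild type, squares male, circles female). The 4 transgenic blood libraries have the highest neutrophil sums, 3061 to 10325 CPM, and the 4 skin libraries with the lowest hair follicle values hold the 4 highest DNASE1L3 levels.

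TLR9 (chromosome 9, 106222598 to 106226883, plus strand), the receptor for DNA, was in blood at 4.28, 10.5, 8.25 and 7.45 CPM in transgenic and 9.7, 6.71, 6.04 and 6.69 CPM in wild-type libraries. Its lowest and its highest value were both transgenic, and the log2 fold change was 0.06 (SE 0.282, edgeR adjusted p = 0.94). TLR3 was at 0.421 to 0.841 CPM in transgenic and 0.45 to 1.01 CPM in wild-type blood and was removed by the filter.

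UNC93B1 (chromosome 19, 3935186 to 3949340, plus strand) was in blood at 52.7, 65.5, 67 and 58.3 CPM against 63.2, 52.8, 54.9 and 49 CPM in the wild type (log2 fold change 0.15, SE 0.165, edgeR adjusted p = 0.702). IRF5 was at 21.1, 26.2, 27.4 and 20.7 CPM against 31.3, 20.9, 26.3 and 24.8 CPM (-0.12, SE 0.182, edgeR adjusted p = 0.789). Chaperone and transcription factor overlapped between the genotypes. TMEM173 (chromosome 18, 35733679 to 35740554, minus strand) was at 16.2, 13.3, 14.1 and 14.2 CPM in transgenic and 19.5, 20.4, 17 and 15.1 CPM in wild-type blood. Only transgenic replicate 1 exceeded a wild-type library, and the log2 fold change was -0.31 (SE 0.147, edgeR adjusted p = 0.355).

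The sensor upstream of it, MB21D1 (chromosome 9, 78430526 to 78443237, minus strand, sharing 201 exon bases with the opposite-strand pseudogene Gm8093), was near 1 CPM in blood, at 0.904, 0.788, 0.758 and 1.39 CPM against 1.35, 0.507, 1.16 and 1.29 CPM (-0.19, SE 0.392, edgeR adjusted p = 0.85). DNASE1L3 was at 0.118, 3.84, 1.85 and 0.438 CPM against 0.168, 2.53, 2.18 and 1.67 CPM (-0.05, SE 0.991, edgeR adjusted p = 0.989). DNASE1L3 was low in replicate 1 of both genotypes, and its SE was the largest of the members tested in blood.

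None of the genes around the receptors was called in blood. The smallest p was that of CTSK, a protease of the folding and proteolysis list (edgeR adjusted p = 0.0696). It was at 0.252 ± 0.024 against 1.65 ± 0.995 CPM (log2 fold change -2.61, list median 0.25 over 10 tested genes). Every transgenic library was below every wild-type one, as for 5.07% of all genes. In skin CTSK was at 486 ± 295 against 824 ± 1110 CPM. Fibroblast markers in blood were lower in 7 of 7 tested genes, with 2 called, beside 0.761% of all genes. The part of RNA from skin in the blood values of CTSK was not tested. In the surface receptor list, with a median of 0.71 over 9 tested genes, CD14, the lipopolysaccharide co-receptor, was at 21.5 ± 16.9 against 3.82 ± 3.45 CPM (2.66, adjusted p = 0.157), and TLR2 at 21 ± 9.54 against 6.44 ± 4.46 CPM (1.66, adjusted p = 0.174). TLR13, the mouse endosomal receptor for bacterial ribosomal RNA, was at 51.2 ± 17.7 against 21.6 ± 12.3 CPM (1.24, adjusted p = 0.21). In the signalling list the adaptor TIRAP was at 8.7 ± 2.92 against 4.05 ± 1.95 CPM (1.11, adjusted p = 0.194), with a list median of 0.01. Of 27 interferon-stimulated genes 19 had a positive difference (median 0.38), among them OAS3 at 60.1 ± 26.8 against 30.2 ± 10.4 CPM (1.02, adjusted p = 0.158). Of 15 genes of cytosolic sensing 12 were positive (median 0.21), with the kinase EIF2AK2 at 12 ± 3.72 against 6.12 ± 1.2 CPM (0.93, adjusted p = 0.144).

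In skin, 8 of the 9 members had a positive difference, and none was called with all 8 libraries. With the hair score as a covariate TLR7, TLR8, TLR9, MB21D1 and DNASE1L3 were all negative, from -0.08 to -0.68, so that 4 of the 8 positive directions turned. Outside replicate 2 of each genotype that score ran from -1.08 to -0.75 in transgenic and from 6.44 to 10.16 in wild-type libraries. The fit thus had little beyond the replicate 2 libraries to tell hair follicle content from genotype. Without that covariate the largest difference was in DNASE1L3, at 2.10-fold the wild-type mean, followed by TLR9, TMEM173, UNC93B1 and IRF5. With edgeR, 2 of the 9 tested had an unadjusted p under 0.05 (TMEM173 and IRF5), as had 3035 of all genes. DESeq2 and limma-voom called 0 members, beside the numbers of genes given in the last section. The share of all genes called in skin was 0.0112% of 17901, that is 2 genes. The members' median log2 fold change was 0.33, beside -0.01 over all genes.

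DNASE1L3 was in skin at 64.5, 11.2, 75.4 and 92.9 CPM in transgenic replicates 1 to 4 and at 14.4, 54.3, 22.5 and 25.1 CPM in wild-type replicates 1 to 4. In each genotype replicate 2 stood on the side of the other genotype. The means were 61.0 ± 35.2 and 29.1 ± 17.4 CPM, with 0.98 as the log2 fold change (SE 0.662, edgeR adjusted p = 0.457). The same 2 libraries stood apart in the hair follicle genes; once that hair score entered the fit, the log2 fold change of DNASE1L3 was -0.40 (adjusted p = 0.678). It was 1.47 (adjusted p = 0.116) without transgenic replicate 2 and 1.63 (adjusted p = 0.123) without wild-type replicate 2. Without both of them, an alternative added after the data were seen, DNASE1L3 (1.92, adjusted p = 0.00385) and IRF5 (0.48, adjusted p = 0.0337) were called higher, as 2 of 9 members beside 2978 of 18418 genes (16.2%). The 6 libraries left were chosen with their hair follicle values known, and those values then do not overlap between the genotypes, so that hair follicle content and genotype cannot be told apart there.

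TMEM173 was at 33.9, 27.2, 37.6 and 36.4 CPM in transgenic skin and 18.8, 23.7, 16.8 and 33.3 CPM in wild-type skin. Wild-type replicate 4 alone lay within the transgenic range, and the log2 fold change was 0.54 (SE 0.219, edgeR adjusted p = 0.282). IRF5 was at 42.7, 33.1, 56.7 and 57.7 CPM against 30.8, 37.3, 40.7 and 40.1 CPM. Transgenic replicate 2 fell among the wild-type libraries, and the log2 fold change was 0.33 (SE 0.139, edgeR adjusted p = 0.29). MB21D1 was at 6.6, 4.69, 8.64 and 7.12 CPM against 6.22, 5.61, 4.82 and 7.36 CPM (0.15, SE 0.237, edgeR adjusted p = 0.754). No member had groups free of overlap in skin, where 3.91% of genes had every transgenic library above and 3.5% every one below.

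The receptors best known from immune cells moved over a wide range within each genotype in skin. TLR7 was at 12.9, 3.35, 9.45 and 7.42 CPM in transgenic and 4.45, 8.64, 9.12 and 12.8 CPM in wild-type skin (-0.03, SE 0.442, edgeR adjusted p = 0.977). TLR8 was at 10.4, 1.59, 6.6 and 4.94 CPM against 4.15, 6.13, 4.64 and 6.61 CPM (0.13, SE 0.512, edgeR adjusted p = 0.915). TLR9 was at 8.38, 1.31, 7.54 and 3.78 CPM against 1.43, 5.49, 3.1 and 3.86 CPM (0.59, SE 0.621, edgeR adjusted p = 0.636). In all these receptors transgenic replicate 1 was the highest of its group and replicate 2 the lowest. Their chaperone UNC93B1 had the same order at its ends, at 108, 57.5, 93.2 and 84.2 CPM, against 35.9, 77.6, 65.3 and 95.2 CPM in the wild type (0.34, SE 0.3, edgeR adjusted p = 0.564).

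TLR3 was the exception among the receptors, at 13.2, 13.4, 13.7 and 12.4 CPM against 14.3, 12.8, 11.1 and 13.8 CPM. All 8 skin libraries lay within 11.1 to 14.3 CPM, and the log2 fold change was 0.02 (SE 0.146, edgeR adjusted p = 0.959). Monocyte and macrophage markers, 15 genes, summed to 787 to 2189 CPM in transgenic and 560 to 1909 CPM in wild-type skin; the lowest transgenic sum was that of replicate 2 and the lowest wild-type sum that of replicate 1, as for TLR7, TLR8, TLR9 and UNC93B1. T cell markers, with 12 of 12 differences positive, summed to 70.1 to 142 CPM in transgenic and 27 to 56 CPM in wild-type skin without overlap. Neutrophil markers, 10 of 11 positive, summed to 66.7 to 138 against 23.6 to 71.6 CPM, and Langerhans cell markers, 3 of 3 positive, to 1075 to 3919 against 602 to 2166 CPM. Most of the Langerhans cell sum was CD74, at 2507 ± 1126 against 1171 ± 639 CPM. EPCAM was at 182 ± 73.9 against 165 ± 75.7 CPM and CD207 at 42.3 ± 22.7 against 15.3 ± 7.99 CPM. Conventional dendritic cell markers summed to 122 to 241 against 48 to 181 CPM, B cell markers to 6.76 to 15.1 against 5.83 to 11 CPM, and plasmacytoid dendritic cell markers to 764 to 993 against 546 to 941 CPM. Most of the last sum was LY6D, which keratinocytes also make, while SIGLECH, a defining marker, was at 1.7 ± 0.924 against 3.25 ± 2.77 CPM. The Langerhans cell, conventional dendritic cell and B cell sums were likewise lowest in transgenic replicate 2 and in wild-type replicate 1 within their groups. The T cell, neutrophil and plasmacytoid dendritic cell sums did not have both. No marker of these lists was at 0 in all skin libraries, and their part in the values of the receptors was not tested.

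**Figure D4:**
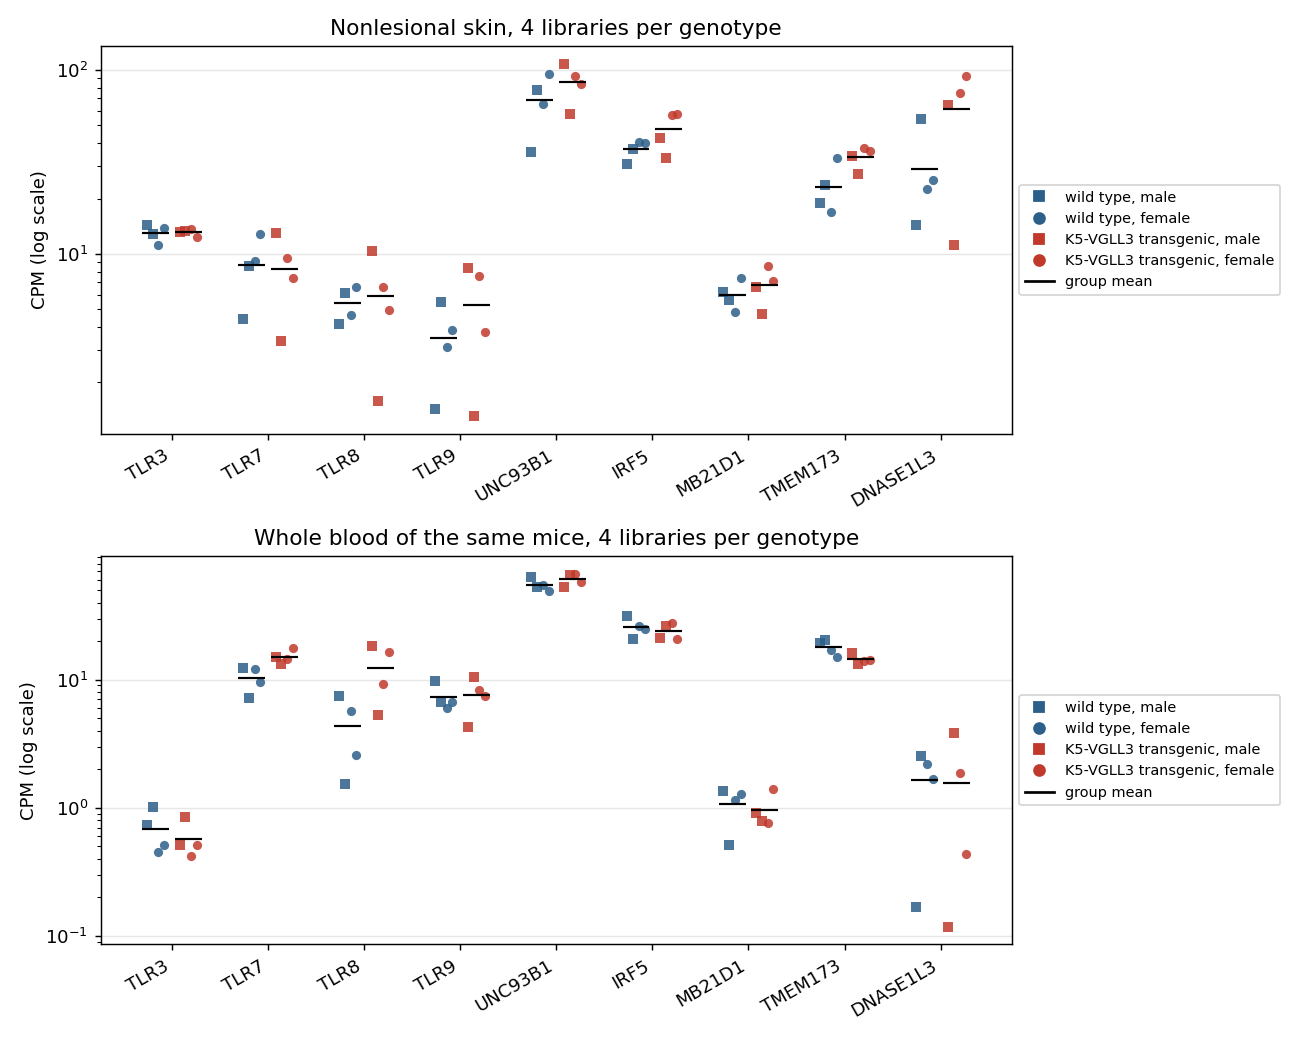
CPM (log scale) of 9 nucleic acid sensing genes in each skin library and each blood library of the same 8 mice (blue wild type, red transgenic, squares male, circles female, black bars group means). TLR7 in blood is the only gene whose groups do not overlap, and DNASE1L3 in skin spreads from 11.2 to 92.9 CPM.

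None of the genes around the receptors was called in skin with all libraries. Without replicate 2 of both genotypes, where 16.2% of all genes were called and hair follicle content cannot be told apart from genotype, the calls were 1 of 15 listed genes of receptor signalling, 1 of 10 of folding and proteolysis, 3 of 15 of cytosolic sensing, 6 of 14 of nucleic acid degradation, 5 of 28 interferon-stimulated genes and 0 of 9 surface receptor genes. Of 28 interferon-stimulated genes 24 had a positive difference, with a median of 0.50; IRF9, a transcription factor of the interferon response, was at 60.1 ± 9.6 against 37.7 ± 5.84 CPM (0.66, adjusted p = 0.21). Of 15 genes of cytosolic sensing 13 were positive (median 0.40), with the ubiquitin ligase TRIM25 at 71.3 ± 7.92 against 46.4 ± 4.96 CPM (0.62, adjusted p = 0.183) and the RNA sensor IFIH1 at 31.7 ± 4.06 against 23.6 ± 1.6 CPM (0.42, adjusted p = 0.227). In the folding and proteolysis list CTSS was at 325 ± 49.4 against 128 ± 67.1 CPM (1.37, adjusted p = 0.223), while the list median was 0.06. The adaptor MYD88 was at 56.1 ± 1.69 against 45.9 ± 3.68 CPM (0.29, adjusted p = 0.253) in a signalling list with a median of 0.16. The nuclease list was centred on 0 (median -0.02), with SAMHD1, which depletes nucleotides, at 147 ± 19.7 against 93.4 ± 26.1 CPM (0.65, adjusted p = 0.238). Of 9 interferon genes only IFNG had a row in this table, at 0.0864 to 0.199 CPM in transgenic and 0 to 0.134 CPM in wild-type skin.

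**Figure D5:**
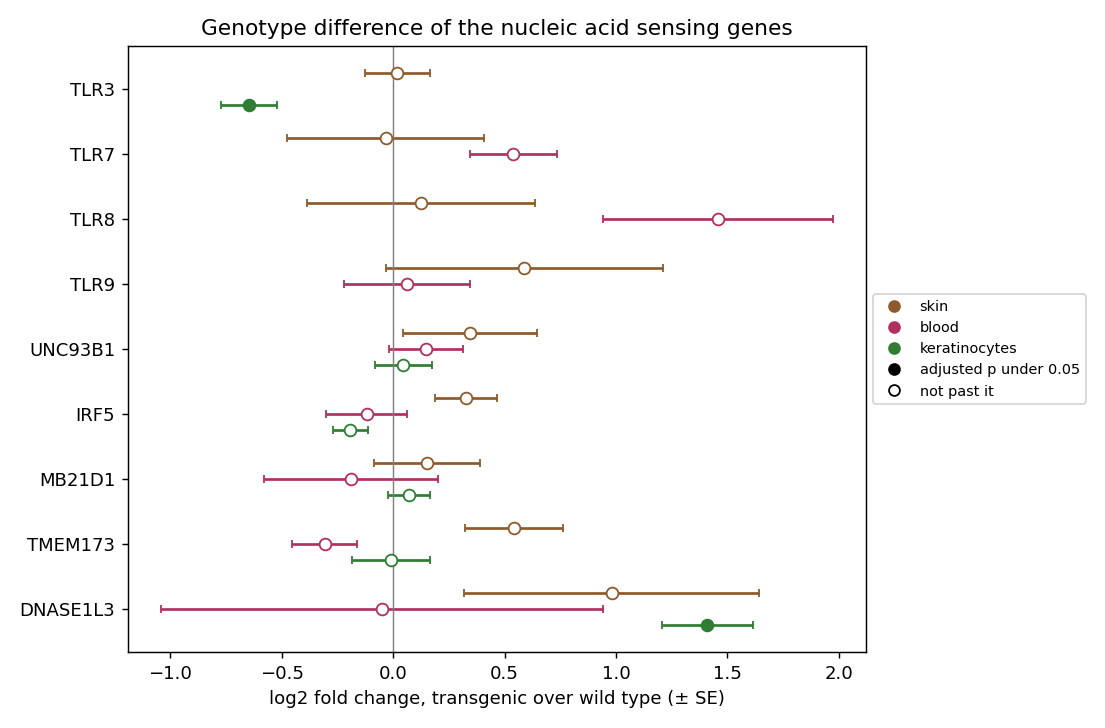
Log2 fold change ± SE, transgenic over wild type, for each tested member in skin, blood and keratinocytes; filled points passed an adjusted p of 0.05. Filled points are those of DNASE1L3 (1.41) and TLR3 (-0.65) in keratinocytes, and TLR8 in blood (1.46) has a wide error.

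The difference between the effect in skin and the effect in blood was tested with the animal as a block. It was called for 1.35% of 16655 genes and for 0 of the 9 members. With edgeR, 2 members had an unadjusted p under 0.05, as had 2554 of all genes. TMEM173 had a difference of 0.93 on the log2 scale, higher in skin and lower in blood (SE 0.298, edgeR adjusted p = 0.167), and TLR8 one of -1.57 (SE 0.608, edgeR adjusted p = 0.252). TLR7 differed by -0.67 (SE 0.488, edgeR adjusted p = 0.56) and DNASE1L3 by 1.37 (SE 1.4, edgeR adjusted p = 0.707). Keratinocytes were counted in a table of their own, so their effects stand beside those of the tissues without a test.

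Sex was tested because TLR7 and TLR8 lie on the X chromosome and the study's title names a female-biased factor. Neither the effect of sex nor its interaction with genotype was called for any member. The interaction was called for 0% of 18726 genes in skin and 0% of 11778 in blood, where edgeR's unadjusted p was under 0.05 for 1579 and 361 genes and limma-voom called 0 in both. The sex effect was called for 0.0279% of 17901 genes in skin and 0.0447% of 11174 in blood. TLR7 averaged 9.70 ± 2.25 CPM in the 4 female and 7.34 ± 4.37 CPM in the 4 male skin libraries (log2 difference 0.40, SE 0.442, edgeR adjusted p = 0.738), and 13.5 ± 3.48 against 11.9 ± 3.31 CPM in blood (0.17, SE 0.195, edgeR adjusted p = 1). TLR8 averaged 5.70 ± 1.06 against 5.56 ± 3.71 CPM in skin. IRF5 had the smallest unadjusted p, 0.0173, at 48.8 ± 9.7 CPM in female and 36 ± 5.23 CPM in male skin (0.42, edgeR adjusted p = 0.421).

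Levels of different genes are compared per kilobase of exon, in wild-type libraries. In skin UNC93B1 was highest at 22.6 ± 8.23 CPM per kilobase, followed by IRF5 at 12.8 ± 1.57, TMEM173 at 8.45 ± 2.68 and DNASE1L3 at 5.65 ± 3.38. After a gap came TLR3 at 2.5 ± 0.273, TLR7 at 2.14 ± 0.838, TLR8 at 1.5 ± 0.328, MB21D1 at 1.46 ± 0.26 and TLR9 at 0.998 ± 0.485 CPM per kilobase. Neighbours in this order overlapped in their libraries, except DNASE1L3 and TLR3.

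In blood UNC93B1 again led at 18.1 ± 1.97 CPM per kilobase, before IRF5 at 8.89 ± 1.49 and TMEM173 at 6.55 ± 0.883. TLR7 followed at 2.52 ± 0.59, TLR9 at 2.1 ± 0.471 and TLR8 at 1.2 ± 0.767, and DNASE1L3, MB21D1 and TLR3 were at 0.318 ± 0.202, 0.26 ± 0.0936 and 0.13 ± 0.0488 CPM per kilobase. UNC93B1 stood clear of IRF5 and TMEM173 stood clear of TLR7, while the other neighbours overlapped.

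In keratinocytes the order differed at the top: IRF5 at 6.45 ± 0.198 CPM per kilobase, MB21D1 at 3.9 ± 0.384, UNC93B1 at 2.53 ± 0.177, TLR3 at 2.21 ± 0.314, TMEM173 at 1.12 ± 0.143 and DNASE1L3 at 0.987 ± 0.242. TLR9 and TLR7 were at 0.0339 ± 0.0221 and 0.0117 ± 0.0107. UNC93B1 overlapped with TLR3, TMEM173 with DNASE1L3 and TLR9 with TLR7; the other neighbours did not overlap. TLR3 was the only endosomal receptor above 1 CPM in these cultures. RNA was isolated with a different reagent from each source, so that levels across the sources carry no correction for it.

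Likeness is given as Pearson's r of log2 CPM over the 8 libraries of a tissue, which share animals, depth and cell makeup, against all genes with a mean of at least 1 CPM (15164 in skin, 10257 in blood). In skin the genes most like TLR7 were CD209F (r = 0.993), CD209G (0.97) and FOLR2 (0.967). CD209F and CD209G encode lectins and FOLR2 a folate receptor, known from macrophages. UNC93B1 was most like MS4A6C (0.993) and FCGR3 (0.979), an Fc receptor of myeloid cells. TLR9 was most like NRBP1 (0.976), ADGRE1 (0.966), the F4/80 antigen of macrophages, and CSF1R (0.965), their growth factor receptor.

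TMEM173 was most like CNN2 (0.981), SAMHD1 (0.979) and GNRH1 (0.972) in skin. MB21D1 was most like SAMD9L (0.918) and TRIM30D (0.909), which are interferon-inducible, and OXTR (0.907). DNASE1L3 followed CAPNS2 (0.989), TMEM45A (0.988) and FAAH (0.988), IRF5 the unnamed model RP24-471H15.8 (0.983), CISH (0.978) and PRKCD (0.968), TLR8 PCSK6 (0.984), MTMR12 (0.973) and CYB561A3 (0.961), and TLR3 RP23-403A4.1 (0.966), ZFP189 (0.939) and MAPK7 (0.936).

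In blood TLR7 was most like OTUD3 (0.982), DRAM1 (0.98) and CD300D (0.966), a myeloid surface receptor, and TLR8 was most like PLEKHG3 (0.998), PTPRE (0.992) and NIN (0.991). TLR7 and TLR8 had r = 0.95 with each other in blood and 0.899 in skin. TLR9 went with NFATC2 (0.935), MDFIC (0.92) and TCF4 (0.903), the last a transcription factor of B cells and plasmacytoid dendritic cells. Over the 36 pairs of members in skin the median r was 0.62, and over the 28 pairs in blood it was 0.04.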

How the data were processed

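Polyadenylated RNA of 22 mouse libraries was sequenced from stranded libraries, per the labels' protocols. Per the submitters' processing notes the tools include HTSeq 0.6.1, STAR 2.5.2 and DESeq2, with build mm10; for annotation and strand setting the sources used here give nothing. The deposited values are raw counts per gene symbol, in 2 tables. Genotypes were compared per tissue with edgeR 4.0.16 (R 4.3.3; TMM, filterByExpr, quasi-likelihood test), adding a sex term for skin and for blood but not for the cultures. The labels do not say that every culture came from its own animal, so p-values measure the spread between these samples. DESeq2 1.42.0 and limma 3.58.1 were run as alternatives, beside other filters, covariates and each library left out. The fits were tested on simulated data. Log2 CPM used a prior count of 2. Each SE in text and figures is the absolute log2 fold change divided by the square root of edgeR's F statistic. Locations come from GENCODE M21, promoters from RefSeq, and figures were drawn with matplotlib 3.10.9. The members, lists and tests were chosen with earlier results of these data known. All members are named; from other lists, called genes (up to 4) or those with the smallest p, not all of which are reported. Some listed genes are not reported here.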

Additional observations from a re-analysis of the deposited data

How the results depend on the processing

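In skin none of the 9 members was called under 15 of 16 alternatives; 2 were called, with 2978 genes, on leaving out replicate 2 of both genotypes, which was added after the data were seen. Genes called in skin, 2 in the test reported, numbered 1097 with DESeq2, 1 with limma-voom, 0 with no sex term, 0 with the replicate block and 5 when the hair follicle score was a covariate, and 0 to 278 on leaving out one library, the most without wild-type replicate 2. With that covariate TLR7, TLR8, TLR9, MB21D1 and DNASE1L3 had values of -0.52, -0.68, -0.44, -0.08 and -0.40. Outside replicate 2 the hair follicle score did not overlap between the genotypes. In blood 1 member (TLR8) was called with DESeq2, 1 with no filter on low counts and 0 to 1 on leaving out a library (1 without transgenic replicate 2). Genes called in blood, 85 in the test reported, were 451 with DESeq2, 1101 with no filter, 21 with limma-voom, 136 with no sex term, 1 with skin-abundant genes left out, and 3 to 611 on leaving out a library. In keratinocytes 0 members were called among males alone, 0 with sex as a covariate (an alternative added after the data were seen) and 1 to 2 on leaving out a culture; genes called, 2197, were 183, 556 and 880 to 3651. The skin-blood difference was called for 78 to 875 genes on leaving out an animal, with both its skin and its blood library, and for no member. Same-numbered skin or blood samples of both genotypes share a number and a sex. The r of their deviations was -0.464 to 0.0822 in skin and -0.249 to 0.407 in blood, which cannot settle whether they share more. With the replicate block 0 members were called in either tissue and 76 genes in blood. The causes of these shifts were not tested. Groups of 3 or 4 libraries and, in keratinocytes, sex that differs between the groups limit what can be called.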
